A study of Mus musculus with 30 samples.

Results

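The 30 genes described here encode the cholesterol machinery of the liver cell. They comprise 8 enzymes of the early steps from acetyl-CoA units to farnesyl and geranylgeranyl diphosphate (*Acat2*, *Hmgcs1*, *Mvk*, *Pmvk*, *Mvd*, *Idi1*, *Fdps*, and *Ggps1*), 11 enzymes from squalene to cholesterol (*Fdft1*, *Sqle*, *Lss*, *Cyp51*, *Tm7sf2*, *Msmo1*, *Nsdhl*, *Hsd17b7*, *Ebp*, *Sc5d*, and *Dhcr7*), 4 regulators (*Srebf2*, *Scap*, *Insig1*, and *Insig2*), and 7 genes of transport, esterification, uptake, and export (*Stard4*, *Soat1*, *Soat2*, *Abca1*, *Abcg5*, *Abcg8*, and *Scarb1*). They were chosen by name for their roles, with earlier results of these data known, and matched by symbol or Ensembl identifier. All 30 of 30 were found in both count tables and passed the filter on low counts. The tables list 54429 and 55471 genes, of which 13361 and 13639 were tested.

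When sterols run low in the endoplasmic reticulum, Scap escorts the transcription factor SREBP-2, the product of *Srebf2*, to the Golgi, where it is cut and freed to enter the nucleus and switch on the synthesis genes. When sterols are plentiful, the Insig proteins hold Scap back. Liver cells dispose of cholesterol by esterifying it (*Soat2* in hepatocytes, *Soat1* more widely), by loading it onto high-density lipoprotein through *Abca1*, and by secreting it into bile through the *Abcg5*/*Abcg8* pair, while *Scarb1* takes it up from high-density lipoprotein. Cholesterol synthesis in rodent liver follows feeding and the time of day.

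RNA came from livers of male C57BL/6J mice on chow under alternating light and dark, aged 2, 6, and 12 months and collected at zeitgeber time (ZT, hours after lights on) 1, 5, 9, 13, 17, and 21, with 1 library per age and ZT (18 libraries). A further 12 libraries came from *Egr-1* knockout (KO) mice, in which an albumin-driven Cre removes floxed *Egr-1* from hepatocytes, and from littermate controls (WT), with 1 library per genotype at each age and at each of 2 collections, named H and L after the highest and lowest Egr-1 protein. These were ZT13 (H) and ZT17 (L) at 2 months, ZT9 and ZT21 at 6 months, and ZT5 and ZT21 at 12 months. Both genotypes were on a C57BL/6J background to which the KO lines, from strain 129, had been backcrossed. The study's figure legends on these transcriptomes give several mice per group, while the files hold 1 library per group, and whether a library pools those mice is not stated. The p-values measure the spread between libraries of different ZT or age, and in whole liver, fewer cells of a type and less RNA per cell cannot be told apart.

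Total counts per library were 13375377 to 16557378 in the time course and 13747706 to 21748956 in the genotype cohort, where each H library (at least 18764485) was deeper than each L library (at most 16633981). All 7 acute-phase genes were higher at 6 months than at 2 months, with a summed level of 16721 to 63857 CPM (counts scaled to library size) at 6 months against 2549.7 to 3272.5 at 2 months. At 6 months, 4 neutrophil markers summed to 21.4 to 140.5 CPM (1.96 to 5.63 at 2 months), 3 of 6 Kupffer cell markers and 3 of 4 tested cholangiocyte markers were higher than at 2 months, and 2 of 6 hepatocyte markers (*Cps1* and *Ass1*) were lower. At 12 months the acute-phase sum was 2100 to 5216 CPM. The part of these changes in the 6-month values below was not tested. Summed CPM of 6 hepatocyte markers were 35969 to 117220 across the 30 libraries. In the library of 12 months at ZT17, 4 pancreas genes summed to 10.4 CPM, against 0.278 to 1.61 in the other 17 libraries of the time course. The libraries labelled KO had lower *Egr1* than their WT in 4 of 6 pairs, and not at 2 months L (7.43 against 1.45 CPM) nor at 12 months H (6.11 against 5.83 CPM). In the H pair of 2 months the values were 1.99 in KO and 2.57 in WT.

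The 300-base windows around transcription start sites (250 bases before to 50 after, GRCm38.p6, RefSeq) were found for 24 of the 30 genes, in 31 windows, and searched on both strands for the sterol response element TCACNCCAC, the NF-Y box CCAAT, the E-box CACGTG, and the EGR site GCGNGGGCG. The sterol response element was in 1 member, *Hmgcs1*, the cytosolic synthase that makes HMG-CoA, against 1.24% of all 32851 windows. CCAAT was in 21 of the 31 member windows, which belong to 21 members and include 15 of 16 synthesis enzymes, against 37.4% of all windows. The E-box was in 6 members and 7 windows (*Hsd17b7*, *Sc5d*, *Dhcr7*, *Scap*, *Insig1*, and *Abca1*), against 7.15% of all windows. The EGR site was in 3 members and 4 windows (*Dhcr7*, *Scap*, and *Insig1*), against 5.55%. A match is a stretch of letters and no measure of binding.

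The windows of *Hmgcs1* (chr13:119690101-119690400, plus strand) and of *Mvk* (mevalonate kinase, chr5:114444019-114444318, plus strand) are shown because they hold the sterol response element and the most CCAAT boxes (5). That of *Insig1* (chr5:28071162-28071461, plus strand) is shown because it holds 3 of the 4 motifs. The windows of *Scap* (chr9:110333106-110333405, plus strand) and *Abca1* (chr4:53159846-53160145, minus strand) belong to the members that passed the test between genotypes. The window of *Abcg5* (chr17:84682962-84683261, minus strand) shares 209 bases with that of *Abcg8*, which runs the other way. Each is written 5′ to 3′ along its gene, and the capitals mark motif matches on either strand (ATTGG is CCAAT read on the other strand).
Hmgcs1: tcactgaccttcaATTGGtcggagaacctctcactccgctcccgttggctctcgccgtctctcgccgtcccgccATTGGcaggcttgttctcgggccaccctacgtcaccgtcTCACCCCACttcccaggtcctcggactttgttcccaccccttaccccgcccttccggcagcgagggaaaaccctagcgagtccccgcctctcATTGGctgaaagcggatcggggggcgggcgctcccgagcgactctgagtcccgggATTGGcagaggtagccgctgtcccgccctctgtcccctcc
Mvk: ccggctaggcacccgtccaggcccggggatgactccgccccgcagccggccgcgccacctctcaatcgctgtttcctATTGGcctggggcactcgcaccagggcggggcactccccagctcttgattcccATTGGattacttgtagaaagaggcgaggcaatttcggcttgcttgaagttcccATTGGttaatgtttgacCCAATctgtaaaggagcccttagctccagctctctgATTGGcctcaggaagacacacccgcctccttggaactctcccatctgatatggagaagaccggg
Insig1: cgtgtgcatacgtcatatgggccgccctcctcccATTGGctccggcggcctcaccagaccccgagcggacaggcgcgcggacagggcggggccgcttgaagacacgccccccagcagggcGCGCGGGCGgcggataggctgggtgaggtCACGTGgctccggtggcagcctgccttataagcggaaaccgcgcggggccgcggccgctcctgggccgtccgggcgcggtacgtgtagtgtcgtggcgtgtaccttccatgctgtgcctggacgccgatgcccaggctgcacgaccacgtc
Scap: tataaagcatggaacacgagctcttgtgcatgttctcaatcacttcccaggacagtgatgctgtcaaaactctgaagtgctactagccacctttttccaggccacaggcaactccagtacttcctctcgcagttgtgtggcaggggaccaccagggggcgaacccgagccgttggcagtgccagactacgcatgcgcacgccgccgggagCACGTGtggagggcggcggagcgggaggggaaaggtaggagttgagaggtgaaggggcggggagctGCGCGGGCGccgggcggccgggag
Abca1: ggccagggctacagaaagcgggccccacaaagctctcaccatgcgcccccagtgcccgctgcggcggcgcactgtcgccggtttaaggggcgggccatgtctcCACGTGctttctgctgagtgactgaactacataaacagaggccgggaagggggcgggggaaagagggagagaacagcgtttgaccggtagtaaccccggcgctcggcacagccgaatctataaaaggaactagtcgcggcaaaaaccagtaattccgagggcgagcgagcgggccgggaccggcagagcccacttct
Abcg5: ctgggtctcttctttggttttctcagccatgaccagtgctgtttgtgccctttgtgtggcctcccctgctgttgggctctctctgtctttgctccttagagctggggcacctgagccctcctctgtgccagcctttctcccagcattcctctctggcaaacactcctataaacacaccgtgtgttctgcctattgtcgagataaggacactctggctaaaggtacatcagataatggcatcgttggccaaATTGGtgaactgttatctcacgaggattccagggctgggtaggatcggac

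Per kilobase of annotated exon, the median level over the 18 libraries of the time course was highest for *Insig1* (101 CPM per kb), *Insig2* (69.5), and *Sc5d*, the sterol desaturase late in the pathway (66.7), and lowest for *Soat1* (0.393) and *Fdps* (0.990). Some of these levels depend on how reads were assigned. Of the 50-base stretches of *Acat2* transcripts, 39.1% also occur in another gene, mostly *Acat3*, and for *Fdps* and *Idi1* the shares were 26.2% (mostly *Gm43738*) and 25.3% (mostly *Gm13502*). *Fdft1* has 18.3% of its exon bases, *Scap* 13.2%, and *Hmgcs1* 12.1%, under exons of a gene on the other strand (*Ctsb*, *5830462I19Rik*, and *Gm48342*). Exons of another gene on the same strand cover 26.7% of the exon bases of *Fdps* and 12.1% of those of *Tm7sf2* (*Vps51*). Strand use and annotation in counting are not given in the sources used here, and the values of these genes are uncertain for that reason.

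The first comparison asked whether the level of the machinery differed between ages across the day. At 12 months, 6 of 19 synthesis enzymes were higher than at 2 months and none lower, together with the cholesterol-esterifying enzyme *Soat2*, and *Scarb1* was lower. The 3 comparisons between ages share libraries and are not independent of each other. In all, 8 of 30 members were called against 11.9% of all genes tested, 7 higher against 6.56% of all genes and 1 lower against 5.36%. At an unadjusted p under 0.05 there were 17 members, against 26.8% of all genes. Over the 19 enzymes the median log2 difference was 0.62, with 18 of 19 above 0, beside a median of -0.0015 over all genes. Across the 8 early enzymes the median was 0.85 and across the 11 sterol enzymes 0.52.

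**Figure D1:**
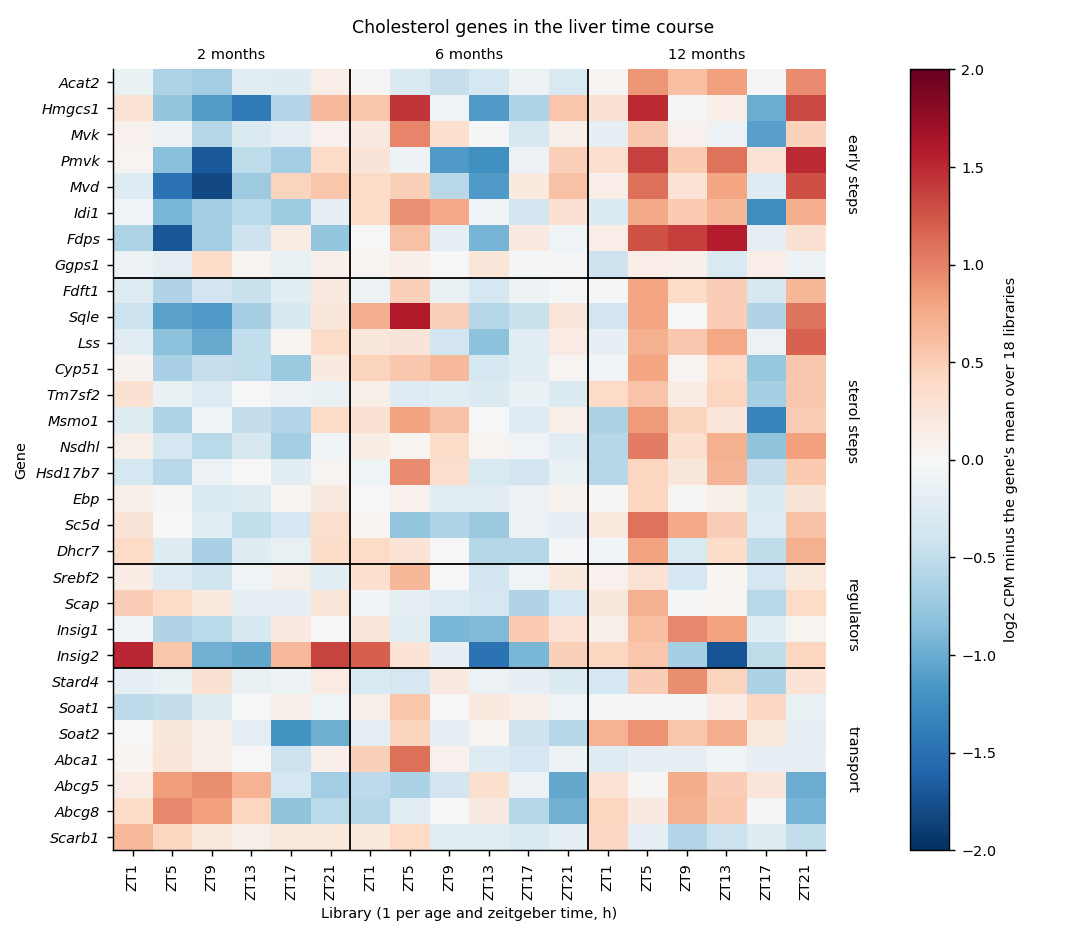
Level of the 30 genes (rows, grouped by role) in the 18 time-course libraries (columns, by age and ZT), as log2 CPM minus the gene's mean over the 18 libraries, with the colour scale limited to ±2. At 12 months, 12 of 19 synthesis enzymes had their highest value at ZT5 and 16 of 19 their lowest at ZT17, while *Insig2* was lowest at ZT13 at each age.

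*Pmvk*, phosphomevalonate kinase (chr3), ranged from 13.3 to 55.6 CPM at 2 months (median 28.4), from 18.3 to 59.1 at 6 months (median 39.6), and from 52.0 to 120.1 at 12 months (median 75.5). Its lowest 12-month library lay just below its highest 2-month library, and at each of the 6 ZT the 12-month value was the higher. The difference was 1.42 ± 0.23 (log2, SE; adjusted p = 0.001, edgeR quasi-likelihood test with Benjamini-Hochberg adjustment). *Acat2*, the cytosolic thiolase that starts the pathway, had medians of 53.5, 51.1, and 103 CPM at 2, 6, and 12 months (ranges 38.9 to 68.5, 45.7 to 63.9, and 61.1 to 121), and it was also higher at 12 than at 2 months at all 6 ZT (0.87 ± 0.17, adjusted p = 0.0031). Of all genes tested, 9.57% were higher at 12 months at all 6 ZT.

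*Fdps*, farnesyl diphosphate synthase, had the lowest level per kilobase of the synthesis genes. Its counted level had medians of 2.73, 4.17, and 7.81 CPM at 2, 6, and 12 months, and rose by 1.44 ± 0.34 (adjusted p = 0.013). These values rest on 21 to 229 reads per library. Exons of another gene on the same strand cover 26.7% of its exon bases, and how such reads were assigned is not known. *Mvd*, which makes isopentenyl diphosphate, had medians of 13.9, 23.4, and 28.2 CPM and a difference of 1.06 ± 0.32 (adjusted p = 0.041). *Lss*, which closes the sterol ring, had medians of 31.2, 39.1, and 61.4 CPM (0.86 ± 0.22, adjusted p = 0.021), and *Fdft1*, squalene synthase, 78.8, 91.2, and 133 CPM (0.63 ± 0.16, adjusted p = 0.017). All 4 of these genes were higher at 12 than at 2 months at 5 of 6 ZT. The call of *Mvd* was lost without any 1 of 9 libraries, that of *Lss* without 2 months ZT5, 2 months ZT9, 12 months ZT9, or 12 months ZT13, and that of *Fdft1* without 12 months ZT13, while *Acat2*, *Pmvk*, and *Fdps* were called without any single library.

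*Soat2*, the enzyme that esterifies cholesterol for storage and lipoproteins in hepatocytes, had the smallest p among the members. It ranged from 6.89 to 18.4 CPM at 2 months (median 14.8), from 10.6 to 21.5 at 6 months (median 13.8), and from 13.8 to 29.3 at 12 months (median 24.4). The ages overlapped, but at matched ZT the 12-month library was above both younger ages at all 6 times, with 0.81 ± 0.12 against 2 months (adjusted p = 0.00035) and 0.63 ± 0.12 against 6 months (adjusted p = 0.0018). *Soat1*, its relative of other cell types, lay between 2.70 and 5.72 CPM and was not called between ages.

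*Scarb1*, the high-density lipoprotein receptor SR-BI, went the other way. Its medians were 114 CPM at 2 months (106 to 154), 85.9 at 6 months (80.5 to 130.3), and 78.2 at 12 months (65.8 to 130.3). It was lower than at 2 months at all 6 ZT in both older groups, by -0.35 ± 0.09 at 6 months (adjusted p = 0.022) and by -0.54 ± 0.09 at 12 months (adjusted p = 0.0016), and both calls held without any single library. Of all genes, 9.69% were lower at 12 than at 2 months at all 6 ZT.

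**Figure D2:**
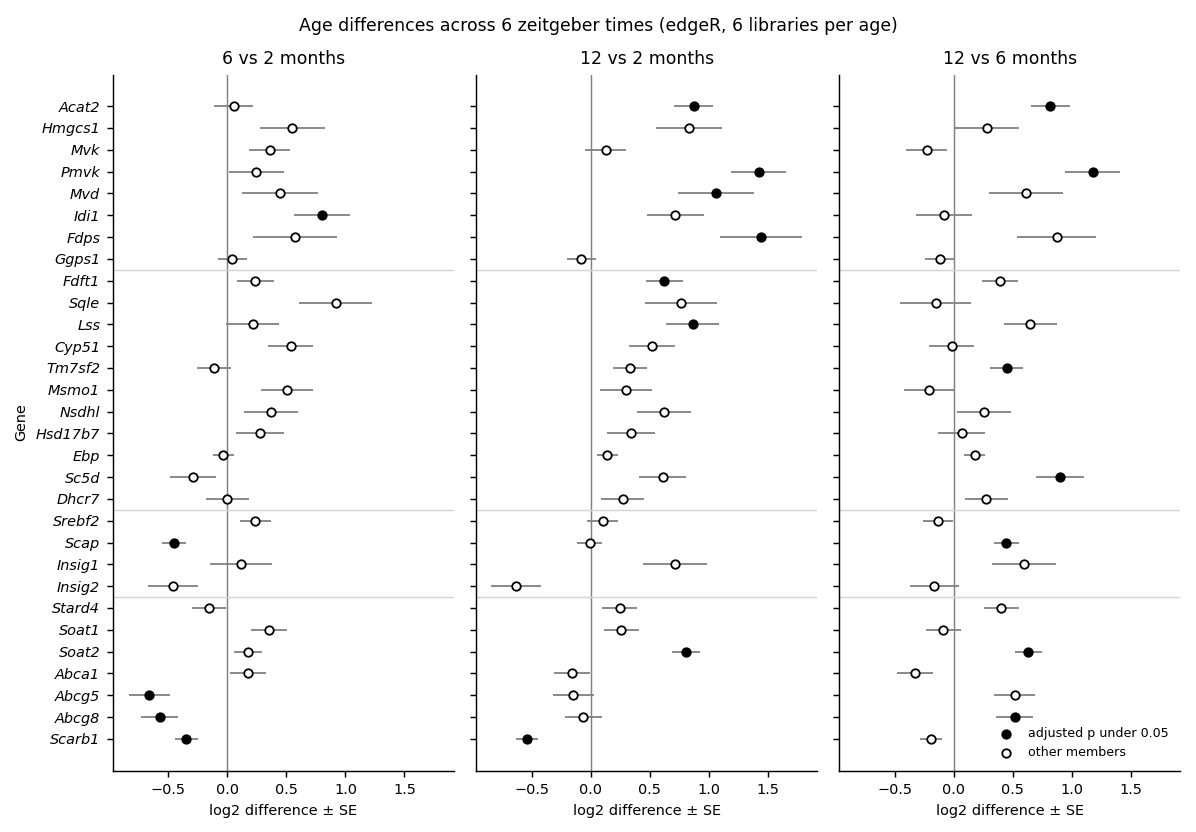
Log2 difference between ages (x axis, with its SE) for the 30 genes (y axis), from 6 libraries per age with ZT as a block, with filled points at adjusted p under 0.05. The 8 members called between 12 and 2 months are 7 higher and *Scarb1* lower, and the synthesis enzymes (the upper 19 rows) have a median log2 difference of 0.62 there.

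The count of enzymes that passed depended most on the library of 12 months ZT17. At ZT17 of 12 months the 19 enzymes summed to 1123 CPM, the lowest of the 18 libraries, while ZT5 of the same age gave the highest sum, 3088 CPM. Without the ZT17 library, 14 members were called between 12 and 2 months in place of 8, *Hmgcs1*, *Idi1*, *Tm7sf2*, *Nsdhl*, *Sc5d*, and *Insig1* being added, and without ZT13 of 12 months 5 were called. Taken ZT by ZT, the enzymes higher at 12 than at 2 months numbered 9 of 19 at ZT1, 19 at ZT5, 18 at ZT9, 18 at ZT13, 4 at ZT17, and 18 at ZT21. The median log2 ratio was largest at ZT5 (1.43) and lowest at ZT17 (-0.28).

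The 12-month libraries also differed in genes that follow feeding. Of 5 genes that are higher in fed liver, 4 were higher at 12 than at 2 months and 5 were higher at 12 than at 6 months, with summed levels of 1076 to 3758 CPM at 12 months, 794 to 1309 at 2 months, and 468 to 1250 at 6 months. The part of feeding in the values of the synthesis genes was not tested.

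Between 12 and 6 months, 7 members were called, all higher, against 16.3% of all genes (8.13% higher and 8.14% lower), and 14 had an unadjusted p under 0.05 (30.6% of all genes). Besides *Pmvk* (1.18 ± 0.23, adjusted p = 0.003), *Acat2* (0.82 ± 0.17, adjusted p = 0.0037), and *Soat2*, these were *Sc5d* (0.90 ± 0.20, adjusted p = 0.0064), *Scap* (0.45 ± 0.10, adjusted p = 0.0083), *Abcg8* (0.51 ± 0.16, adjusted p = 0.035), and *Tm7sf2*, a sterol reductase (0.45 ± 0.14, adjusted p = 0.042). *Sc5d* had medians of 313, 259, and 490.1 CPM at 2, 6, and 12 months, so that its level at 6 months was the lowest of the 3. *Acat2*, *Pmvk*, *Scap*, *Soat2*, *Abcg5*, and *Abcg8* were higher at 12 than at 6 months at all 6 ZT, as were 7.99% of all genes. The calls of *Tm7sf2* and *Abcg8* were lost without any 1 of 9 and of 7 libraries, and with no term for time of day those of *Tm7sf2*, *Scap*, *Soat2*, and *Abcg8* were. Without 12 months ZT17, 12 members were called, and without 2 months ZT5, 11 were.

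From 2 to 6 months, 5 members were called against 13.7% of all genes (7.19% higher and 6.47% lower), and 4 of the 5 were lower genes of regulation, uptake, and export (*Scap*, *Abcg5*, *Abcg8*, and *Scarb1*). Over the 19 synthesis enzymes the median was 0.28, beside 0.02 over all genes. *Idi1*, isopentenyl diphosphate isomerase, was the 1 member called higher (0.80 ± 0.24, adjusted p = 0.035). Its medians were 62.1, 121, and 144 CPM at 2, 6, and 12 months, it was higher at 6 than at 2 months at all 6 ZT, and its call was lost without any 1 of 8 libraries. *Scap*, the sterol sensor that carries SREBP-2, ranged from 54.4 to 86.9 CPM at 2 months (median 71.4), from 40.5 to 59.5 at 6 months (median 50.1), and from 41.9 to 101 at 12 months (median 67.7). It was lower at 6 months at all 6 ZT (-0.45 ± 0.10, adjusted p = 0.0085), and its call held without any single library. Of all genes tested, 8.75% were lower and 8.79% higher at 6 months at all 6 ZT.

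*Abcg5* and *Abcg8*, the partner subunits of the transporter that moves sterols into bile, were lower together at 6 months. *Abcg5* had medians of 79.2, 42.5, and 69.3 CPM at 2, 6, and 12 months, and *Abcg8* 63.9, 37.4, and 60.2 CPM. Both were below their 2-month value at 5 of 6 ZT, with differences of -0.66 ± 0.18 (adjusted p = 0.021) and -0.58 ± 0.16 (adjusted p = 0.024). Across the 18 libraries their log2 CPM had a Pearson r of 0.92, as a description of libraries that share age, ZT, and depth, and across the 12 libraries of the genotype cohort r was 0.485. The genes overlap on opposite strands in 3.02% of the exon bases of *Abcg5*. Their calls were lost without ZT5 or ZT9 of either age, and that of *Abcg8* also without ZT1 of either age or 2 months ZT21. The number of members called fell to 2 without 2 months ZT5, 6 months ZT5, or 6 months ZT9, and to 3 without 2 months ZT9, 2 months ZT21, or 6 months ZT1. With no term for time of day, 0 were called. With the term, 10 members had an unadjusted p under 0.05, against 27.5% of all genes.

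Outside the 30 members, 26 other genes of sterol handling were examined. Between 12 and 2 months, 5 of 26 were called, against 11.9% of all genes. Higher were *Acss2*, which makes acetyl-CoA from acetate (1.18 ± 0.29, adjusted p = 0.015), *Rnf145*, a ubiquitin ligase (0.62 ± 0.13, adjusted p = 0.0047), *Npc2*, the lysosomal sterol carrier (0.37 ± 0.08, adjusted p = 0.0079), and *Aacs*, acetoacetyl-CoA synthetase (0.91 ± 0.21, adjusted p = 0.011). Lower was *Mbtps2*, the second protease that cuts SREBPs (-0.49 ± 0.14, adjusted p = 0.035). Between 6 and 2 months, 2 of 26 were called, against 13.7% of all genes. They were *Mylip*, the ligase that degrades lipoprotein receptors (0.54 ± 0.16, adjusted p = 0.029), and *Gramd1c*, a sterol carrier (-0.35 ± 0.11, adjusted p = 0.045). Between 12 and 6 months, 6 of 26 were called, against 16.3% of all genes, 3 higher (*Acss2*, *Aacs*, and *Cyp27a1*) and 3 lower (*Mylip*, *Mbtps1*, and *Mbtps2*).

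The next comparison asked which members followed the time of day. A 24-h cosine shared by the 3 ages was called for 8 of 30 members against 16.2% of all genes. They were 2 of 4 regulators (*Insig2* and *Scap*), 4 of 7 genes of transport and handling (*Soat2*, *Abcg5*, *Abcg8*, and *Scarb1*), and 2 of 19 synthesis enzymes (*Hmgcs1* and *Pmvk*). At an unadjusted p under 0.05 there were 15 members, against 31.8% of all genes. *Insig2*, the sterol sensor that anchors Scap, had the smallest p (amplitude 1.15 on the log2 scale, peak at ZT0.4, adjusted p = 2.4e-05). At 2 months it measured 536, 276, 97.6, 93.5, 297, and 485 CPM at ZT1, 5, 9, 13, 17, and 21. At 6 months the values were 435, 229, 169.7, 68.3, 100, and 264 CPM, and at 12 months 254, 276, 119, 57.1, 134, and 255 CPM. It was thus lowest at ZT13 at each age and highest at ZT1 at 2 and 6 months and at ZT5 at 12 months, by 5.73-, 6.37-, and 4.84-fold from lowest to highest.

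Its partner *Insig1*, a direct SREBP target in textbooks, did not pass (adjusted p = 0.69), and peaked in fits of single ages at ZT19.5, ZT21.5, and ZT8.8. The Pearson r of *Insig1* and *Insig2* over the 18 libraries was 0.038. *Hmgcs1* had a shared amplitude of 0.90 with its peak at ZT1.3 (adjusted p = 0.0073). Its values at ZT1, 5, 9, 13, 17, and 21 were 184, 87.6, 68.8, 56.1, 99.3, and 233 CPM at 2 months, 219, 403, 141, 68.4, 97.2, and 219.8 at 6 months, and 184, 422, 148, 164, 75.5, and 372 at 12 months. The highest library was ZT21 at 2 months and ZT5 at both older ages.

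**Figure D3:**
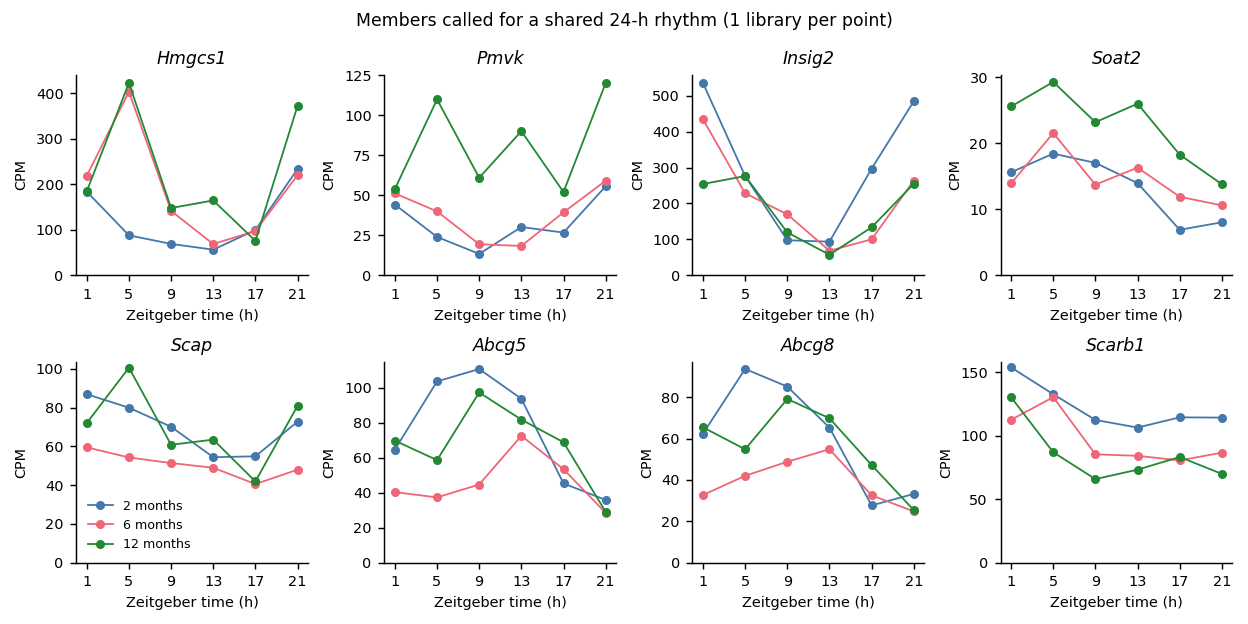
CPM (y axis, linear) against ZT (x axis) for the 8 members called for a shared 24-h rhythm, with 1 point per library and a line per age. *Insig2* was lowest at ZT13 at each age, *Abcg5* was lowest at ZT21 at each age, and *Soat2* at 12 months was above the other ages at each ZT.

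The biliary transporter and *Soat2* had fitted peaks in the light phase. *Abcg8* (amplitude 0.63, peak ZT8.1, adjusted p = 0.0011) and *Abcg5* (0.56, ZT9.7, adjusted p = 0.0087) were lowest at ZT21 in 5 of the 6 series of an age and a gene, the exception being *Abcg8* at 2 months, lowest at ZT17. *Soat2* (0.49, ZT6.8, adjusted p = 0.0015) was highest at ZT5 at each age. *Scap* (0.32, ZT3.2, adjusted p = 0.0049), *Scarb1* (0.28, ZT2.1, adjusted p = 0.014), and *Pmvk* (0.56, ZT22.5, adjusted p = 0.031) completed the set. The call of *Pmvk* was lost without any 1 of 7 libraries and the others held without any single library. *Pmvk* was also lost with ZT as a factor, and *Scarb1* under library totals. Without the 2-month libraries 3 members were called, and without the 12-month libraries 14 were.

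Of the other 26 genes, 6 were called for the shared rhythm, against 16.2% of all genes. They were *Abcb11*, the bile salt export pump (amplitude 0.69, peak ZT2.7, adjusted p = 1.6e-05), *Aacs* (0.68, ZT15.0, adjusted p = 0.0021), and *Rnf145* (0.33, ZT11.7, adjusted p = 0.013) with the smallest p, and *Erlin1*, *Mylip*, and *Gramd1c*.

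A test of whether the rhythm itself differed between ages called 0 members by edgeR for 6 against 2 months (background 0.112%; 11 members at an unadjusted p under 0.05 against 10.8% of all genes, and *Insig2* by DESeq2) and 0 for 12 against 2 months (background 0%; 5 members unadjusted against 4.56%, and *Insig1* by DESeq2). The smallest adjusted p was that of *Sqle*, squalene epoxidase, for 6 against 2 months (0.15), which peaked at ZT20.1 at 2 months and at ZT3.8 at 6 months in fits of single ages. Its values at ZT1, 5, 9, 13, 17, and 21 were 33.4, 21.5, 20.6, 28.4, 36.1, and 52.9 CPM at 2 months and 74.7, 136, 62.9, 30.5, 33.3, and 53.4 at 6 months. Across the 19 enzymes, the highest library was ZT21 for 13 at 2 months, ZT5 for 10 at 6 months, and ZT5 for 12 at 12 months. This is a count of single libraries and not a test. The library of 6 months ZT5 had the highest acute-phase (63857 CPM) and neutrophil (140.5 CPM) sums of the time course. Its sum of hepatocyte markers was the lowest (45047 CPM). The part of this in the 6-month peaks was not tested.

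A rank test of the JTK kind was also run within each age. With 6 values its smallest p is 0.0333 (exact permutation test, two-sided), which after adjustment over all genes is 0.396, so that no gene could pass 0.05. At that smallest p were 7 of 30 members at 2 months (*Mvd*, *Sqle*, *Lss*, *Ebp*, *Scap*, *Soat2*, and *Abcg5*; 8.41% of all genes), 6 at 6 months (*Mvk*, *Idi1*, *Msmo1*, *Hsd17b7*, *Insig2*, and *Abca1*; 7.89%), and 0 at 12 months (6.29%). Cosine fits of single ages, in 1 edgeR model over the 18 libraries, called 5 members at 2 months after adjustment (*Mvd*, *Insig2*, *Soat2*, *Abcg5*, and *Abcg8*; 5.13% of all genes), 4 at 6 months (*Sqle*, *Insig1*, *Insig2*, and *Abca1*; 4.85%), and 1 at 12 months (*Insig2*; 3.63%). At an unadjusted p under 0.05 there were 14, 16, and 11 members at 2, 6, and 12 months, against 20.3%, 19.4%, and 17.9% of all genes. The difference between ages in these counts was not tested.

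The 19 synthesis enzymes moved as a group from library to library. Over the 18 libraries, the Pearson r of each enzyme's log2 CPM with the mean of the other enzymes lay between 0.59 (*Sc5d*) and 0.94 (*Fdft1*) for 18 of 19, and was -0.20 for *Ggps1*, the geranylgeranyl diphosphate synthase of the side branch. In the 12 libraries of the genotype cohort, *Fdft1* was again the highest (0.965), *Ebp* (0.38) and *Ggps1* (0.015) the lowest. *Srebf2* had r of 0.61 and 0.73, *Insig1* 0.58 and 0.78, *Insig2* 0.25 and -0.021, and *Abcg5* -0.47 and -0.28. These libraries share age, ZT, and scaling, and the values are descriptions.

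The other 13 members were not called by edgeR between ages, for the shared rhythm or its change, or between genotypes. Among them, *Insig1* and *Sqle* passed in the cosine fit of 6 months alone. DESeq2 called *Insig1* for the change of rhythm between 12 and 2 months and *Dhcr7* for the shared rhythm. Between ages it called *Cyp51* for 6 and for 12 against 2 months, and *Stard4* for 12 against 6 months. Over the 18 libraries of the time course, *Cyp51*, the lanosterol demethylase, ranged from 87.9 to 258 CPM, and *Msmo1*, which removes sterol methyl groups, from 72.3 to 329 CPM. The further enzymes *Mvk*, *Ggps1*, *Sqle*, *Nsdhl*, *Hsd17b7*, *Ebp*, and *Dhcr7* had lowest and highest values of 9.25 and 38.4, 6.49 and 11.1, 20.6 and 136, 24.4 and 87.3, 26.9 and 77.4, 109 and 181, and 28.1 and 77.2 CPM. *Srebf2* lay between 31.4 and 65.6 CPM, *Insig1* between 162 and 595 CPM, and *Stard4*, a soluble sterol carrier, between 66.1 and 196 CPM. *Soat1* is given above.

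The comparison of genotypes asked whether these genes differed after loss of hepatocyte *Egr-1*. Over the 6 pairs of KO and WT, *Abca1*, which exports cholesterol to apolipoprotein A-I, and *Scap* were lower in KO, and none of the 19 synthesis enzymes was called. The 2 members called compare with 1.58% of all genes (0.792% lower), and 3 members had an unadjusted p under 0.05, against 16% of all genes. *Abca1* in WT and KO was 113 and 92.8 CPM at 2 months H, 108 and 91.0 at 2 months L, 109.7 and 88.4 at 6 months H, 109.7 and 83.1 at 6 months L, 105 and 82.8 at 12 months H, and 110.2 and 87.5 at 12 months L. All 6 WT libraries (105 to 113 CPM) were above all 6 KO libraries (82.8 to 92.8 CPM), with a log2 difference of -0.32 ± 0.05 (adjusted p = 0.023).

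*Scap* in WT and KO was 118 and 80.9 CPM at 2 months H, 94.9 and 93.3 at 2 months L, 113 and 86.9 at 6 months H, 131 and 91.1 at 6 months L, 111 and 67.1 at 12 months H, and 93.7 and 68.9 at 12 months L. It was lower in KO in all 6 pairs, by little at 2 months L, and its lowest WT library (93.7 CPM) lay just above its highest KO library (93.3 CPM). The difference was -0.44 ± 0.08 (adjusted p = 0.038). Of all genes tested, 4.67% were lower in KO in all 6 pairs, and among members *Abca1* and *Scap* were the 2 that were. The share of all genes with every WT library above every KO library was not counted.

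The summed level of the 6 hepatocyte markers was 62562 to 79866 CPM in WT and 35969 to 54923 in KO, with no overlap. Of the 6, *Alb*, the gene whose promoter drives the Cre, was called (-0.88 ± 0.11, adjusted p = 0.01), and *Hnf4a*, *Tat*, *Cps1*, *Cyp2e1*, and *Ass1* were not, with differences of -0.15 to 0.18. The part of this in the values of *Abca1* and *Scap* was not tested.

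The call of *Abca1* was lost without 2 months H, 6 months H, 12 months H, or 12 months L, and that of *Scap* without any pair but 2 months L. Without 2 months L and 12 months H, the pairs in which *Egr1* was not lower in the library labelled KO, 0 members were called. Under library totals without scaling factors, which shifts the median of all genes between genotypes from -0.01 to 0.11, 0 were called and both remained lower (-0.32 for *Scap* and -0.20 for *Abca1*). Without the pair as a block, *Scap* was not called (adjusted p = 0.061, with age and H or L as terms). *Soat2*, next by p, was lower in 5 of 6 pairs but did not pass (-0.33, adjusted p = 0.16).

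**Figure D4:**
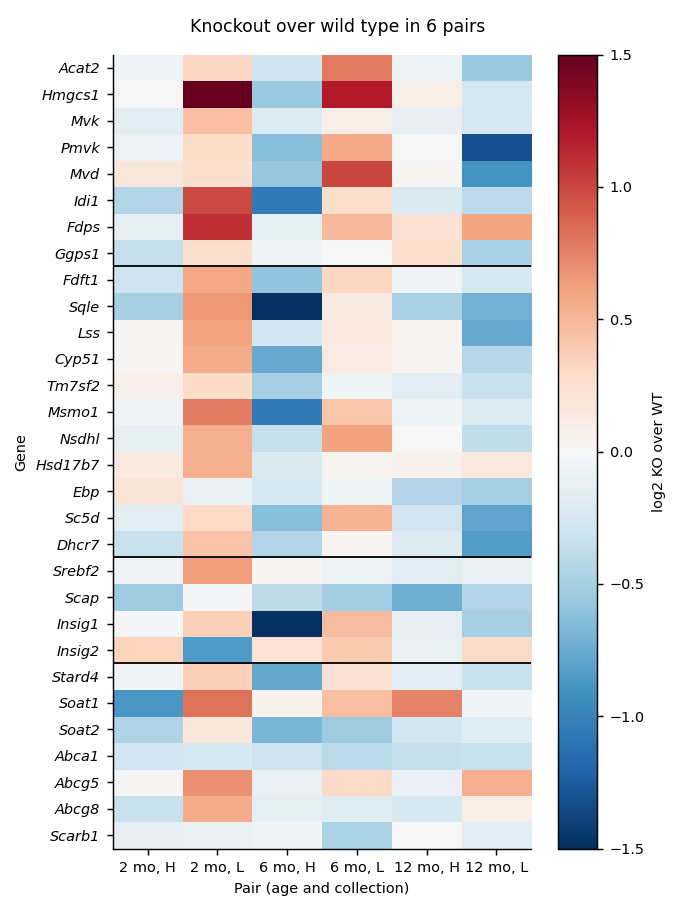
Log2 ratio of KO over WT CPM in each of the 6 pairs (columns) for the 30 genes (rows, grouped by role), with the colour scale limited to ±1.5 and 1 library per genotype in a pair. *Abca1* and *Scap* are below 0 in all 6 columns, while the synthesis enzymes are mostly above 0 at 2 months L and 6 months L and below 0 at 6 months H and 12 months L.

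The synthesis enzymes differed within pairs, but in opposite directions. At 2 months L, 18 of 19 were higher in KO (median log2 ratio 0.53; 54.5% of all genes were higher), and at 6 months L 17 of 19 were (0.27; 49.5%). At 6 months H, 0 of 19 were higher in KO (-0.50; 50.6% of all genes were lower), and at 12 months L 2 of 19 were (-0.43; 49.2%). At 2 months H, 13 of 19 were lower in KO (-0.089; 50.1%), and at 12 months H 12 of 19 were (-0.045; 52.5%). *Hmgcs1* was 108 CPM in WT and 495 in KO at 2 months L, and 232 in WT and 157 in KO at 6 months H. Differences of over 1.2 on the log2 scale were seen for *Hmgcs1* at 2 months L (2.20; 5.68% of all genes), *Sqle* (-1.81) and *Insig1* (-1.54) at 6 months H (3.82%), and *Pmvk* at 12 months L (-1.32; 5.41%). With 1 library per genotype in a pair, these ratios have no replicate check.

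The summed level of the 19 enzymes in WT and KO was 1836 and 1753 CPM at 2 months H, 1958 and 2947 at 2 months L, 2241.5 and 1482 at 6 months H, 1809.7 and 2350.4 at 6 months L, 2754 and 2534 at 12 months H, and 2030.3 and 1429 at 12 months L. The order of genotypes thus turned between collections of the same age at 2 and 6 months. The 5 genes of fed liver summed to 3140.7 CPM in WT and 1979 in KO at 2 months L, to 1538 and 1125 at 6 months H, to 1247 and 2766 at 6 months L, and to 2528 and 1405 at 12 months L, and their part in these differences was not tested. A genotype difference that depended on age was called for 0 members (background 0.0147%; 0 at an unadjusted p under 0.05 against 3.11% of all genes, and 0 by DESeq2). A difference that depended on H or L was also called for 0 members (background 0.00733%; 7 at an unadjusted p under 0.05 against 5.23% of all genes, and 0 by DESeq2), with a median difference of -0.31 over the 30 members beside -0.014 over all genes.

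**Figure D5:**
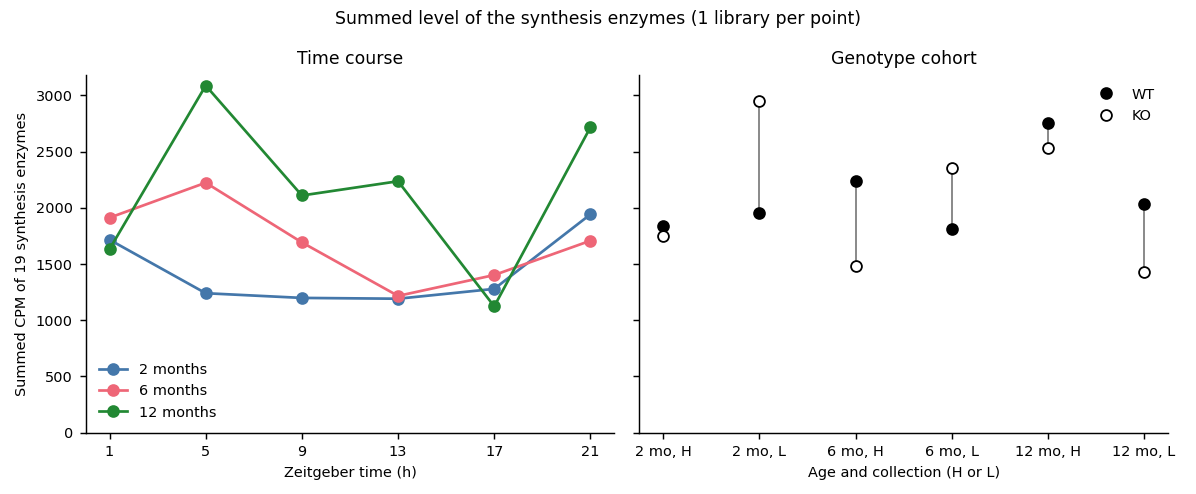
Summed CPM of the 19 synthesis enzymes (y axis, from 0) by ZT and age in the time course, and by pair in the genotype cohort, with 1 library per point. The time-course sums run from 1123 CPM (12 months ZT17) to 3088 CPM (12 months ZT5), and KO is above WT at 2 months L and 6 months L and below it in the other pairs.

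Within the genotype cohort, the ages could be compared a second time, over 4 libraries per age. *Insig2* was the 1 member called, higher at 6 than at 2 months (1.52 ± 0.30, adjusted p = 0.027; background 2.87%, 1.54% higher) and at 12 than at 2 months (2.03 ± 0.30, adjusted p = 0.002; background 12.2%, 5.47% higher). It measured 98.7, 115, 125, and 63.7 CPM in the libraries of 2 months, 188 to 424 at 6 months, and 296 to 501 at 12 months, with no overlap between 2 months and the older ages. The share of all genes without such overlap was not counted. In the time course, with ages at matched ZT, the direction was the opposite. There *Insig2* was below its 2-month value at 5 of 6 ZT at 6 and at 12 months. Its medians were 287, 199, and 194 CPM at 2, 6, and 12 months. EdgeR did not call it between ages, while DESeq2 called it for 12 against 2 months. The ages of the genotype cohort were collected at different ZT, and *Insig2* varied with ZT in the time course, so that age and time of day cannot be told apart in this cohort. The cohorts also differed at 1 matched age and ZT. At 2 months ZT17, *Insig2* was 297 CPM in the time course and 115 in WT of this cohort, but 93.5 and 98.7 at ZT13. At an unadjusted p under 0.05 there were 3 members in each comparison, against 18.1% and 26.4% of all genes. In the WT libraries alone 0 members were called at either age (edgeR), and the call of 6 against 2 months was lost without either 2-month KO library, 2 months WT H, or 6 months WT L.

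None of the synthesis enzymes called in the time course was called between ages in this cohort, where the median log2 difference of the 19 enzymes was 0.027 for 12 against 2 months. *Soat2* was not called here either. At 2 months it measured 22.9 to 26.9 CPM in WT and 19.6 to 25.9 in KO. At 12 months it measured 26.9 CPM in WT at H and at L, and 22.2 to 23.7 in KO. Libraries of the same age and ZT also differed between the cohorts. At 2 months ZT17, *Soat2* was 6.89 CPM in the time course and 22.9 in WT of this cohort, and *Pmvk* 26.7 and 82.5. At 12 months ZT5, *Soat2* was 29.3 and 26.9 CPM and *Pmvk* 110 and 102. The source of this difference between cohorts was not tested. ZT21 is the one time at which both cohorts hold 6 and 12 months. There, 18 of 19 enzymes were higher at 12 months in the time course (median log2 ratio 0.70), 13 of 19 in WT (0.06), and 1 of 19 in KO (-0.59), each from 1 library against 1 and normalized within its own table. Of the other 26 genes, *Cyp7a1*, the rate-limiting enzyme of bile acid synthesis, was lower (-1.07 ± 0.25 at 6 months, adjusted p = 0.047, and -1.16 ± 0.25 at 12 months, adjusted p = 0.013), and *Abcb11* was higher (0.60 ± 0.10, adjusted p = 0.016, and 0.54 ± 0.10, adjusted p = 0.0073). At 12 months *Cyp27a1* and *Dhdds* were also lower.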

How the data were processed

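Liver poly(A) RNA was sequenced in 30 libraries. The authors trimmed reads with fastp, aligned them to mm10 with HISAT2, and deposited raw counts per gene from featureCounts (submitters' processing notes and the study's methods, versions not given in the sources used here). Annotation and strand setting are not given there either. The study's figure legends give several mice per group, without saying whether they were pooled into the single library of a group. The time course and the genotype cohort are separate tables and were analysed separately.

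Counts were filtered with filterByExpr, scaled by TMM, and tested with edgeR 4.0.16 (quasi-likelihood F-test, Benjamini-Hochberg adjustment over all genes tested, threshold 0.05) in R 4.3.3. Ages were compared with ZT as a block, rhythm by a 24-h cosine and sine with age as a term, and genotypes with the pair as a block. A rank test of the JTK kind was computed exactly over all 720 orders of 6 values. CPM are TMM-scaled. Correlations of log2 CPM with the mean of the enzymes used a pseudocount of 0.5, and those between single genes used none. Scripts were tested on simulated data. DESeq2 1.42.0, other scalings, filters, and left-out libraries were the alternatives. Times of collection differ between ages in the genotype cohort.

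Members, lists, and the rule for named genes (called members with the smallest p, and called genes of other lists, up to 3 in each direction) were chosen with earlier results of these data known. Promoter windows are from RefSeq (GRCm38.p6), and *Fdps*, *Fdft1*, *Sqle*, *Stard4*, *Soat2*, and *Scarb1* had no matched window.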

Additional observations from a re-analysis of the deposited data

How the results depend on the processing

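No member named above as called reversed its direction under any alternative run. The median over all genes did change sign under library totals, from -0.01 to 0.11 between genotypes and from -0.0015 to 0.0575 between 12 and 2 months. With no filter on low counts, the members called numbered 10 (6 against 2 months, 5 as reported), 16 (12 against 2 months, 8 as reported), 15 (12 against 6 months, 7 as reported), 1 (change of rhythm, 6 against 2 months), and 3 (genotype by time of collection). DESeq2 called 6, 11, and 11 members for 6 against 2, 12 against 2, and 12 against 6 months. It called 10 for the shared rhythm (8 as reported) and 1 for each change of rhythm. Between ages of the genotype cohort it called 2 and 3 (6 and 12 against 2 months, 1 each as reported). Library totals gave 11 between 12 and 2 months, 11 between 12 and 6 months, 7 for the shared rhythm, and 0 between genotypes. With no term for time of day, 0 and 3 were called for 6 against 2 and 12 against 6 months. The shared rhythm was called for 3 members without the 2-month and 14 without the 12-month libraries. Between genotypes, 1 was called without the pair block (age and H or L as terms), 1 with genotype alone, and 0 in H pairs alone, in L pairs alone, and without 2 months L and 12 months H. In WT alone, 0 were called between ages of that cohort. Leaving out 1 library gave 2 to 7 (6 against 2 months), 5 to 14 (12 against 2), 5 to 12 (12 against 6), 7 to 11 (shared rhythm), 0 to 1 (change of rhythm, 6 against 2), 0 to 2 (genotypes, by pair), and 0 to 1 and 1 to 2 (ages of the genotype cohort). In place of the rank test, a cosine fit at an unadjusted p under 0.05 called 14, 16, and 11 members at 2, 6, and 12 months (20.3%, 19.4%, and 17.9% of all genes), and 5, 4, and 1 after adjustment (5.13%, 4.85%, and 3.63%). The causes were not tested. With 1 library per age and ZT, or per age, genotype, and collection, no interval can be given for a single condition beyond counting error.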
